A study of Mus musculus with 6 samples.

Results

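The genes described here are 10 transcription factor genes of the Egr, Nr4a and Klf families, namely Egr1, Egr2, Egr3, Nr4a1, Nr4a2, Nr4a3, Klf2, Klf4, Klf6 and Klf10. They were chosen by name, through the Ensembl identifiers that GENCODE M21 gives these symbols, from a table of 55487 genes. All 10 were found in the table, 9 had a count in at least 1 library, and 8 had enough counts to be tested. RNA was sequenced from RAW264.7 cells, a virus-transformed mouse macrophage line that can form osteoclasts. The tested group was made up of 3 samples titled SMART-Cas9 with the genotype RhoA knockout, in which the small GTPase RhoA had been targeted with Cas9. The comparison group was made up of 3 control samples of wild-type genotype, which the design text calls untreated. All 6 samples carry the treatment label RANKL/M-CSF, 2 cytokines under which macrophages turn into osteoclasts. The labels do not say whether the edited cells were 1 clone or a pool, and there were no samples given Cas9 alone, so the delivery and the loss of RhoA cannot be told apart. Whether the replicates were separate cultures is not stated. The p-values therefore reflect the spread among these 6 samples and nothing wider, and that spread may be technical.

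As background, Egr proteins are zinc finger factors whose genes are switched on within minutes of a growth factor, cytokine or antigen receptor signal, largely through ERK kinases acting on SRF and its partners at the promoter. Nr4a proteins are orphan nuclear receptors whose genes respond in the same rapid way, often through CREB, and which act in macrophages as brakes on inflammatory gene expression. Krüppel-like factors bind GC-rich and CACCC sequences. In myeloid cells Klf2 and Klf4 are linked to monocyte differentiation and to restraint of inflammation, Klf6 to inflammatory activation of macrophages, and Klf10 to signalling by TGF-beta, after which it was first named.

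Totals ran from 71777994 to 81830819 counts in the RhoA knockout libraries and from 60198645 to 79918899 in the control libraries. The targeted gene was not lower: Rhoa averaged 31.8 ± 2.18 CPM (counts scaled to library size) where the label is RhoA knockout and 23.9 ± 2.22 CPM in the controls (SD, n = 3 each; log2 fold change 0.41 ± 0.12, SE; edgeR adjusted p = 0.0136). The knockout is therefore known here from the labels alone, and "RhoA knockout libraries" below stands for libraries so labelled. Replicate 3 stood apart in both groups, its chi-square per degree of freedom against the others of its group being at least 80.8, while replicates 1 and 2 gave 26.3 in the RhoA knockout and 20.7 in the control group. All 10 macrophage markers searched had counts, Mertk only 4 in 1 control library. Their summed level was 81120 to 113700 CPM in the RhoA knockout libraries and 18210 to 20060 CPM in the control libraries, most of it Lyz2 with means of 88260 CPM in the RhoA knockout and 16830 CPM in the control libraries. Of the 9 macrophage markers tested, Lyz2, Cd68 and Csf1r were called higher, and Itgam, Fcgr1, Cd14, Adgre1 and Ptprc were called lower, with a median log2 fold change of -0.39. Of 10 osteoclast markers 8 had counts, summing to 27.3 to 27.5 CPM in the RhoA knockout libraries and 24.3 to 27.7 CPM in the control libraries, while Calcr and Oscar were at 0 in every library. Members of that sum moved in opposite directions: of 7 tested, Ctsk and Atp6v0d2 were called higher, at log2 fold changes of 1.10 and 0.62, and Mmp9, Acp5 and Dcstamp lower, at -2.06, -1.43 and -0.77. The summed levels of the T cell, B cell, fibroblast, endothelial and neutrophil marker lists were at most 0.302 CPM in any library. Of 5 epithelial markers 3 had counts, all in control replicate 1, where they summed to 1.44 CPM. A call, meaning an edgeR adjusted p under 0.05, was common: 43.2% of the 12930 genes tested had one, or 5592 genes.

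The sequences just before the starts of 4 of the genes are shown because these genes span the behaviours found: Klf6 fell, Klf4 rose, Klf2 had the largest fold change without passing the threshold, and Nr4a2 was close to absent. Each is the 250 bases upstream of a transcript start, from RefSeq on GRCm38.p6, read 5′ to 3′ on the strand of the gene. Capitals mark matches, on either strand, to the CRE core TGACG, the EGR site GCGGGGGCG, the CACCC box CACCC and the TATA box TATAAA.
Klf6 (chr13:5861239-5861488, plus strand): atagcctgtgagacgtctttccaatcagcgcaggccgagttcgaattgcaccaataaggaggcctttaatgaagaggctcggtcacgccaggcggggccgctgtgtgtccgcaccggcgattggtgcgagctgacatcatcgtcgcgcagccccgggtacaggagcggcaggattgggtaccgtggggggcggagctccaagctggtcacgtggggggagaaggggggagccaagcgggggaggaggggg
Klf4 (chr4:55532476-55532725, minus strand): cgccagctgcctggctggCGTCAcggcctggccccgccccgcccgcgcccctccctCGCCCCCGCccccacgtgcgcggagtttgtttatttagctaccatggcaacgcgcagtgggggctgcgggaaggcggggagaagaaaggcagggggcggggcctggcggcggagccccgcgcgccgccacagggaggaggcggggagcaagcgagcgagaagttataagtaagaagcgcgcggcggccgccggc
Klf2 (chr8:72318812-72319061, plus strand): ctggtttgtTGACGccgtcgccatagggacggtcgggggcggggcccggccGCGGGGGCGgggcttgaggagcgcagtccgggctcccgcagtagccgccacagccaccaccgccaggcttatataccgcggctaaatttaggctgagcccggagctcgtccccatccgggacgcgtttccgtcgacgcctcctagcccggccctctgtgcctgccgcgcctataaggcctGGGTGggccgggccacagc
Nr4a2 (chr2:57124004-57124253, minus strand): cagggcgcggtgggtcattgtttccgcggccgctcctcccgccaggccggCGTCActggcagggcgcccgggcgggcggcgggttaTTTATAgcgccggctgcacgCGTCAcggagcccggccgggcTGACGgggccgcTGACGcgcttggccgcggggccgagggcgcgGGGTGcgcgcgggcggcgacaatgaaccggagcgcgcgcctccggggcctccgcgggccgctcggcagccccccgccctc

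RefSeq windows were matched for 7 of the 10 genes. Those not matched were Egr1, Egr3 and Klf10. The Klf6 window held none of the motifs searched, which also included the CArG box bound by SRF (CC, 6 A or T, GG), the full CRE TGACGTCA, the EGR site GCGTGGGCG, the Nr4a site AAAGGTCA and the AP-1 sites TGAGTCA and TGACTCA. The Klf4 and Klf2 windows each held 1 CRE core and 1 EGR site GCGGGGGCG, and that of Klf2 also 1 CACCC box. The Nr4a1, Nr4a2 and Nr4a3 windows held 4 CRE cores each. Among the windows of these 7 genes a CArG box was found only in those of Egr2, in 4 of 5. The letters were CCATATATGG, 1 site shared by 3 overlapping windows, and CCTTTTTTGG in the other. Of all 32851 RefSeq windows of this length, 17.8% held a CRE core, 2.57% the EGR site GCGGGGGCG, 52.0% a CACCC box, 12.4% the TATA box, 1.47% a CArG box, 1.55% the full CRE, 0.536% the EGR site GCGTGGGCG, 1.34% the Nr4a site and 4.46% an AP-1 site. These matches describe letters in a window and say nothing of whether a factor binds there. The CRE core lies within the full CRE, so a full CRE counts under both.

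Within the families the Klf genes moved in both directions. None of the Egr and Nr4a genes tested passed, and Egr2 and Nr4a3 had too few counts to be tested. Of the 8 genes tested, Klf4 and Klf10 were called higher and Klf6 was called lower in the RhoA knockout libraries. Among all genes tested 21.0% were called higher and 22.3% lower, so the share of these genes that was called is close to the share of all genes. The RhoA knockout and control libraries did not overlap for 4 of the 8, which were Klf2, Klf4, Klf6 and Klf10, beside 55.8% of all genes tested. RNA came from whole cultures, so fewer cells expressing a gene cannot be told apart from less of its RNA per cell. Levels above and below are CPM scaled by TMM factors, which adjust library totals for composition.

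**Figure D1:**
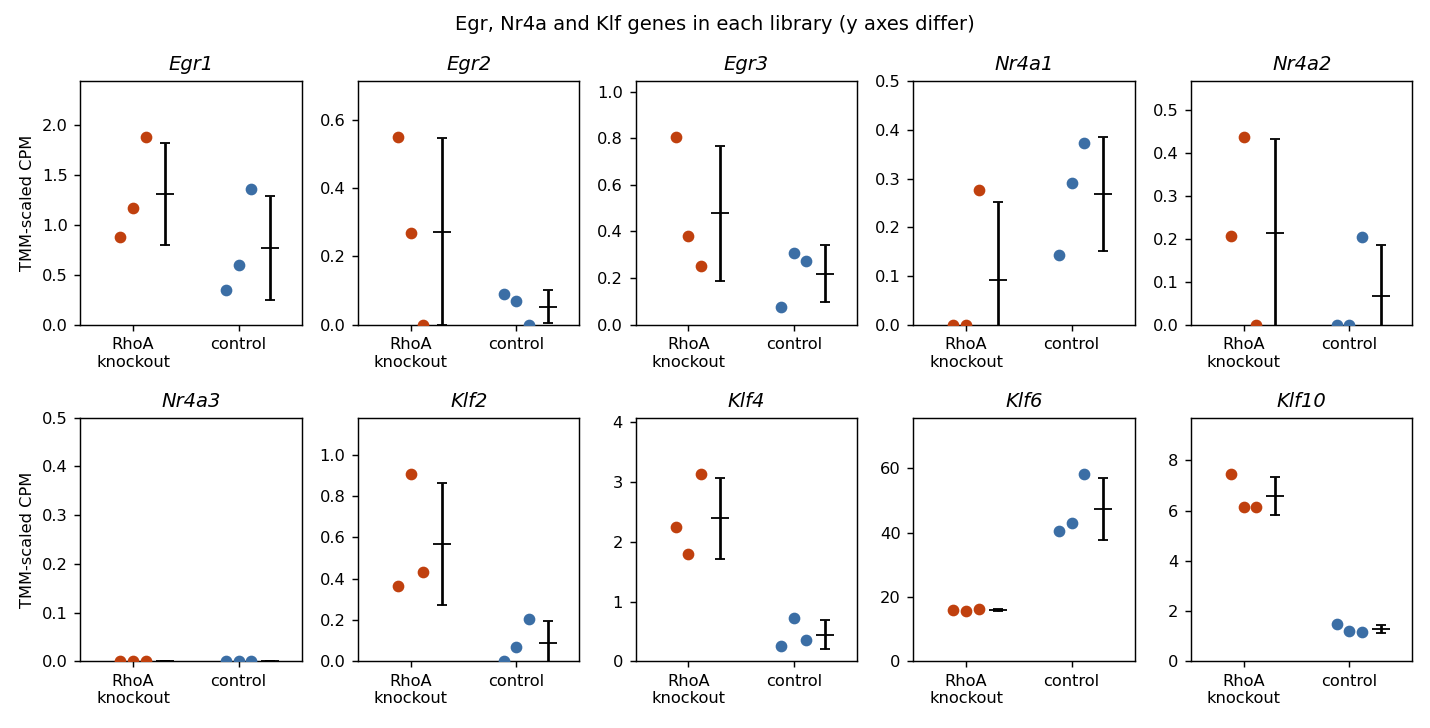
TMM-scaled CPM of the 10 genes in each library, RhoA knockout replicates 1 to 3 (red) left of control replicates 1 to 3 (blue), with mean ± SD in black (n = 3 each; the part of a bar below 0 is not drawn). Klf6 lies near 16 CPM in every RhoA knockout library and above 40 CPM in every control library, and Nr4a3 is at 0 throughout.

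Klf6 was the most abundant of the 10 genes and the one that fell. It encodes a Krüppel-like factor of broad expression that promotes inflammatory gene expression in macrophages (ENSMUSG00000000078.7, GRCm38 chr13:5861482-5870394, plus strand). Klf6 held 1317, 1403 and 1241 counts in the RhoA knockout libraries, against 3131, 2513 and 3430 in the control libraries. In CPM this was 16.1, 15.7 and 16.3 in the RhoA knockout libraries and 40.6, 42.9 and 58.2 in the control libraries. The RhoA knockout libraries lay close together, and the highest of them was far below the lowest control library. Klf6 averaged 16.0 ± 0.312 CPM in the RhoA knockout libraries and 47.2 ± 9.57 CPM in the control libraries (SD, n = 3 each). The log2 fold change was -1.56 ± 0.14 (SE; 95% interval -1.87 to -1.25), or 2.95-fold lower, with an edgeR adjusted p of 4.05e-06. Without control replicate 3, the highest library, the log2 fold change was -1.38 with an adjusted p of 6.71e-06.

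Klf10 rose. It encodes a transcriptional repressor induced by TGF-beta (ENSMUSG00000037465.10, chr15:38291463-38300706, minus strand). Klf10 held 612, 549 and 468 counts in the RhoA knockout libraries, against 114, 70 and 69 in the control libraries. This was 7.46, 6.14 and 6.15 CPM in the RhoA knockout libraries and 1.48, 1.20 and 1.17 CPM in the control libraries. Each RhoA knockout library was several times above each control library, and the spread within the groups was small beside this gap. The means were 6.58 ± 0.757 CPM in the RhoA knockout libraries and 1.28 ± 0.170 CPM in the control libraries (SD, n = 3 each). The log2 fold change was 2.36 ± 0.24 (SE; 95% interval 1.84 to 2.87), or 5.12-fold, with an edgeR adjusted p of 8.10e-06.

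Klf4 rose as well, at a lower level. It encodes a factor of monocyte differentiation that is also one of the classical reprogramming factors (ENSMUSG00000003032.8, chr4:55527143-55532466, minus strand). Klf4 held 184, 160 and 238 counts in the RhoA knockout libraries, against 20, 42 and 21 in the control libraries. This was 2.24, 1.79 and 3.13 CPM in the RhoA knockout libraries and 0.259, 0.718 and 0.356 CPM in the control libraries. The groups did not overlap, although control replicate 2 held more than the other controls. Klf4 averaged 2.39 ± 0.681 CPM in the RhoA knockout libraries and 0.444 ± 0.242 CPM in the control libraries (SD, n = 3 each), a log2 fold change of 2.43 ± 0.46 (SE; 95% interval 1.44 to 3.43) with an edgeR adjusted p of 0.000991. Without replicate 3 of both groups the log2 fold change was 2.06 and the adjusted p 0.0239.

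Klf2, a factor of endothelial and lymphocyte quiescence that also restrains myeloid activation, did not pass the test (ENSMUSG00000055148.7, chr8:72319033-72321656, plus strand). Klf2 held 30, 81 and 33 counts in the RhoA knockout libraries, against 0, 4 and 12 in the control libraries. In CPM these were 0.366, 0.906 and 0.434 in the RhoA knockout libraries and 0, 0.0683 and 0.204 in the control libraries. All RhoA knockout libraries lay above all control libraries, but on few counts. The log2 fold change was 2.66 ± 1.15 (SE; 95% interval 0.15 to 5.17) with an edgeR adjusted p of 0.0829. The gene passed the threshold by DESeq2 (adjusted p = 0.0321) and without control replicate 3 (adjusted p = 0.036), and over all alternatives that tested it the adjusted p ran from 0.0321 to 0.301.

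**Figure D2:**
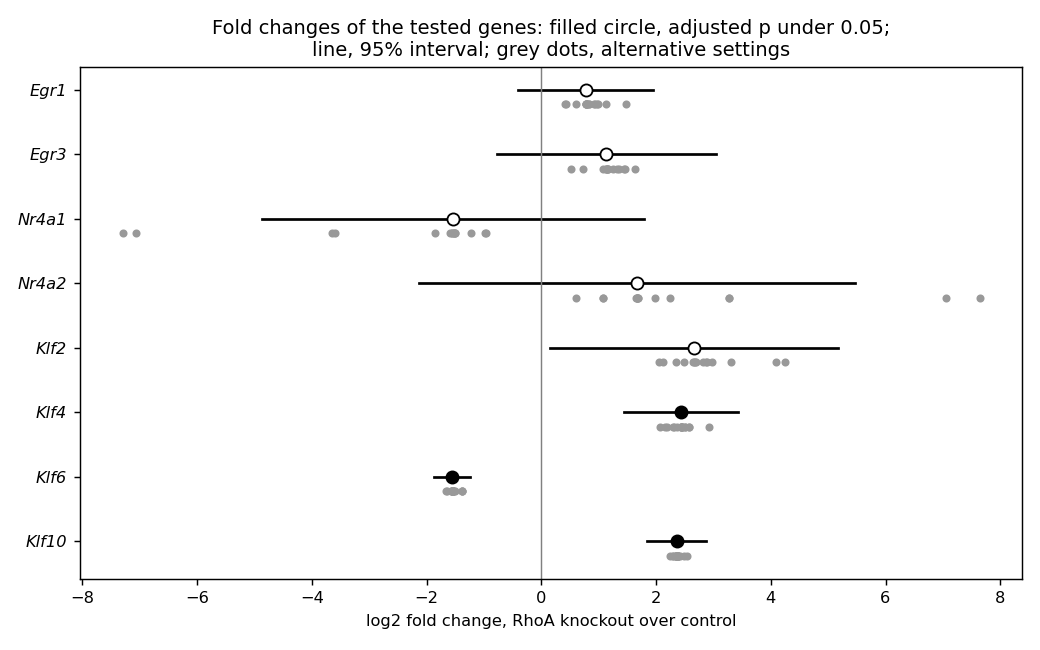
Log2 fold changes of the RhoA knockout over the control libraries for the 8 genes tested, with 95% intervals as lines, filled circles for an adjusted p under 0.05 and grey dots for the values under the alternative settings. The intervals of Klf6 and Klf10 are narrow and away from 0, and that of Klf4, 1.44 to 3.43, is wider but also away from 0. Nr4a1 and Nr4a2 reach -7.30 and 7.64 under settings in which 1 group keeps no count.

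The 3 Egr genes were low in both groups. Egr1, the best known immediate early zinc finger gene (ENSMUSG00000038418.7, chromosome 18, 34859823 to 34864984, plus strand), held 72, 105 and 143 counts in the RhoA knockout libraries, against 27, 35 and 80 in the control libraries. This was 0.877, 1.18 and 1.88 CPM in the RhoA knockout libraries and 0.350, 0.598 and 1.36 CPM in the control libraries. Replicate 3 was the highest library of either group, and the groups overlapped. The log2 fold change was 0.77 ± 0.54 (SE; 95% interval -0.40 to 1.95) with an edgeR adjusted p of 0.277. It was 1.47 without control replicate 3 (adjusted p = 0.053) and 0.42 without control replicate 1 (adjusted p = 0.576). Egr1 was thus not called, and its interval includes changes of over 2-fold.

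Egr3, a related factor with roles in lymphocytes (ENSMUSG00000033730.4, chr14:70077203-70082614, plus strand), held 66, 34 and 19 counts in the RhoA knockout libraries and 6, 18 and 16 in the control libraries. Only the lowest control library and the highest RhoA knockout library stood off from the rest, and the log2 fold change was 1.13 ± 0.88 (SE; 95% interval -0.78 to 3.05; edgeR adjusted p = 0.33). Egr2, a factor of macrophage and lymphocyte tolerance (ENSMUSG00000037868.15, chr10:67535475-67542188, plus strand), held 45, 24 and 0 counts in the RhoA knockout libraries and 7, 4 and 0 in the control libraries. It had too few counts to be tested with the main filter. With no filter Egr2 had a log2 fold change of 2.31 ± 1.68 (SE) and an edgeR adjusted p of 0.322. Replicate 3 of both groups held none of it, although these libraries were the highest for Egr1.

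The Nr4a genes were at or near 0. Nr4a1, which encodes the nuclear receptor Nur77 (ENSMUSG00000023034.7, chr15:101254269-101274795, plus strand), held 0, 0 and 21 counts in the RhoA knockout libraries and 11, 17 and 22 in the control libraries. All counts of the RhoA knockout group came from replicate 3, which lay within the range of the control libraries in CPM. Its log2 fold change was -1.54 ± 1.53 (SE; 95% interval -4.87 to 1.79; edgeR adjusted p = 0.452). Without RhoA knockout replicate 3 its other 2 libraries hold no count, and the adjusted p was 0.0272. Nr4a2, which encodes Nurr1 (ENSMUSG00000026826.13, chr2:57106830-57124003, minus strand), held 17, 39 and 0 counts in the RhoA knockout libraries and 0, 0 and 12 in the control libraries. Its counts lay in replicates 1 and 2 of the RhoA knockout and in replicate 3 of the control, and its log2 fold change was 1.67 ± 1.74 (SE; 95% interval -2.13 to 5.47; edgeR adjusted p = 0.475). Without replicate 3 of both groups the control libraries hold no Nr4a2 count, and the adjusted p was 0.0276. Nr4a3, which encodes Nor1 (ENSMUSG00000028341.9, chr4:48045153-48086447, plus strand), held 0 counts in every library. At 3 counts a library, counting error only, this allows a level of up to 0.034 to 0.039 CPM in the RhoA knockout libraries. In the control libraries it allows up to 0.039 to 0.051 CPM. These limits take 1 read as 1 count, which is not stated in the sources used here. They are higher if a read adds more counts, and low counts fell somewhat often at multiples of 4.

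Set side by side per length, as CPM per kilobase of exon, Klf6 led in both groups and Klf10 had the next highest mean. The order of the means below these differed between the groups. In the control libraries neighbours from Klf10 down overlapped, so the order there is that of the means only. In the RhoA knockout libraries Klf6 had 3.65 ± 0.0711, Klf10 1.58 ± 0.181 and Klf4 0.783 ± 0.224 CPM per kb (SD, n = 3 each), with no overlap between neighbours in this order. Klf2 at 0.308 ± 0.159 and Egr1 at 0.292 ± 0.115 CPM per kb overlapped each other, and Egr3, Egr2, Nr4a2 and Nr4a1 followed at 0.109 CPM per kb or less with overlapping values. In the control libraries Klf6 had 10.8 ± 2.18 CPM per kb, and the next gene, Klf10, had 0.307 ± 0.0408. Egr1 at 0.171, Klf4 at 0.146, Nr4a1 at 0.0766, Egr3 at 0.0497, Klf2 at 0.0491, Nr4a2 at 0.0167 and Egr2 at 0.0156 CPM per kb followed, each overlapping the next. The gap between Klf6 and the second gene was thus wide in the control libraries and narrow in the RhoA knockout libraries.

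The makeup of the Klf family differed between the groups, with a smaller share of Klf6 and larger shares of Klf13, Klf10 and Klf4 in the RhoA knockout libraries. Summed over the 17 Klf genes of the table, the level was 13.1, 11.7 and 11.8 CPM per kb in the RhoA knockout libraries and 14.3, 14.9 and 18.3 CPM per kb in the control libraries. Klf6 made up 28.0, 30.6 and 31.6% of this sum in the RhoA knockout libraries and 64.7, 65.7 and 72.5% in the control libraries. Klf13, which is not one of the 10 genes, made up 33.6, 30.1 and 23.4% in the RhoA knockout libraries and 13.1, 12.4 and 10.4% in the control libraries. Klf10 made up 13.7, 12.6 and 12.5% in the RhoA knockout libraries and 2.48, 1.92 and 1.53% in the control libraries. For Klf4 the shares were 5.63, 5.03 and 8.73% in the RhoA knockout libraries and 0.596, 1.58 and 0.64% in the control libraries. The level of Klf10 per length was 48.8, 41.1 and 39.6% of that of Klf6 in the RhoA knockout libraries, but 3.83, 2.93 and 2.11% in the control libraries. This ratio does not depend on how the libraries are scaled. On the log2 scale the ratio of Klf10 to Klf6 averaged -1.22 ± 0.16 in the RhoA knockout libraries and -5.12 ± 0.43 in the control libraries (SD, n = 3 each), a difference of 3.90. That of Klf4 to Klf6 averaged -2.26 ± 0.38 in the RhoA knockout libraries and -6.32 ± 0.82 in the control libraries, a difference of 4.06. That of Klf13 to Klf6 averaged -0.07 ± 0.35 in the RhoA knockout libraries and -2.50 ± 0.26 in the control libraries, a difference of 2.44. These ratios combine genes already seen to move apart, so they are given as a description with no test.

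**Figure D3:**
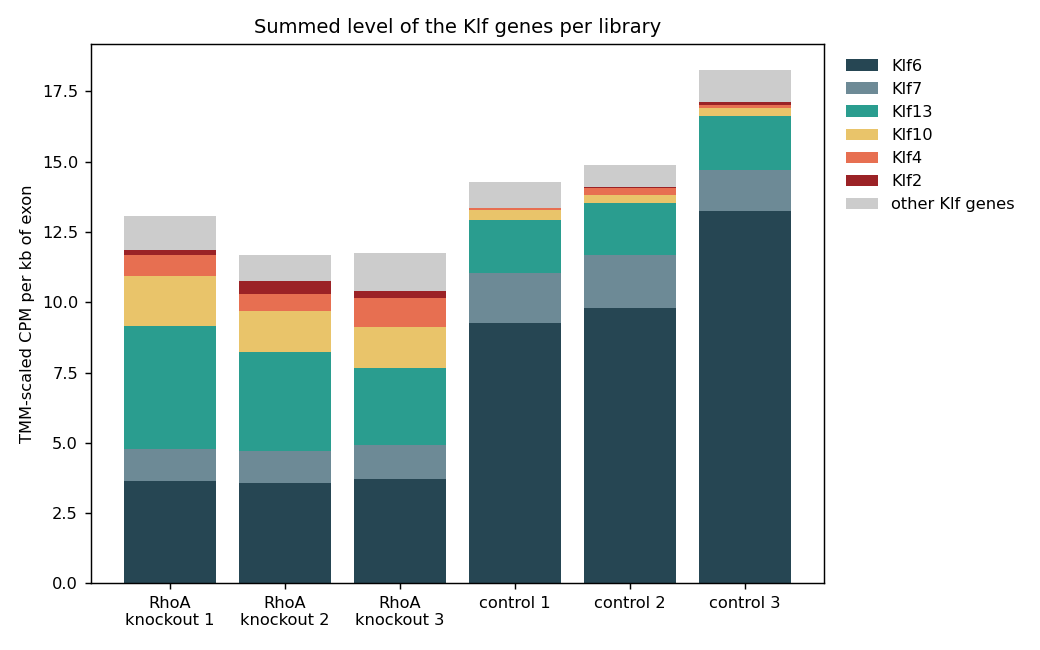
Summed TMM-scaled CPM per kb of exon of the 17 Klf genes in each library, RhoA knockout left of control, split by gene. Klf6 takes 28.0 to 31.6% of the bar in the RhoA knockout libraries and 64.7% or more in the control libraries, where Klf10, Klf4 and Klf2 are thin bands.

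Of 14 other genes of the Egr and Klf families 7 were tested, of which Klf13 was called higher and Klf7 and Klf8 lower. Over all genes tested 43.2% were called, so the share called here is close to that of all genes. The median log2 fold change was 0.00 beside -0.03 for all genes tested. Klf13, a regulator of lymphocyte chemokine and cytokine genes, had 33.0, 26.4 and 20.7 CPM in the RhoA knockout libraries, against 14.1, 13.9 and 14.3 CPM in the control libraries. Its RhoA knockout libraries were spread widely but all lay above the control libraries, and the log2 fold change was 0.92 ± 0.16 (SE; edgeR adjusted p = 0.000599). Klf7, a factor studied in neurons and fat cells, averaged 9.32 ± 0.369 CPM in the RhoA knockout libraries and 14.0 ± 1.91 CPM in the control libraries (SD, n = 3 each; log2 fold change -0.59 ± 0.15, SE; edgeR adjusted p = 0.0069). The call was lost with the gene length correction, where Klf7 was at -0.21 with an adjusted p of 0.287, and with library totals alone (adjusted p = 0.0911). Klf8, which is below the level set for named genes, had a log2 fold change of -1.63 (edgeR adjusted p = 0.0345). Neither Klf7 nor Klf8 was called with library totals alone, with the gene length correction, or with that correction and a replicate block. Klf8 was also not called with the replicate block alone or without replicate 3 of both groups, and a stricter filter on low counts left it untested. Leaving out RhoA knockout replicate 1, RhoA knockout replicate 3 or control replicate 3 lost the Klf8 call as well. Klf9, a glucocorticoid-induced factor, averaged 2.12 ± 0.727 CPM in the RhoA knockout libraries and 2.12 ± 0.513 CPM in the control libraries (SD, n = 3 each), with an SE of 0.34 on the log2 fold change. Egr4, Klf12, Klf14, Klf15 and Klf17 held no count in any library.

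The log2 fold changes of all genes moved with exon length, from a median of 0.40 in the second shortest of 10 length classes to -0.59 in the longest. The 3 called genes lie where this trend is weak. The median log2 fold change was -0.01 in the class that holds Klf6, with 4391 bp of exon, and Klf10, with 4179 bp, and 0.20 in the class that holds Klf4, with 3049 bp. With the trend removed, the log2 fold changes were -1.52 for Klf6, 2.38 for Klf10 and 2.29 for Klf4, and all 3 remained called. For Klf2, the shortest of the 10 genes at 1847 bp, the value moved to 2.35 with an adjusted p of 0.125. Of 12 mitochondrial and nuclear RNAs looked at as signs of RNA quality, 7 were called higher and 4 lower. Over all genes tested the shares were 21.0% higher and 22.3% lower. The respiratory chain genes mt-Nd1 and mt-Nd3 were among those called higher, at log2 fold changes of 4.29 and 4.60. The 4 called lower were mt-Co1 at -1.32, mt-Nd5 at -0.45 and the nuclear RNAs Neat1 at -1.54 and Malat1 at -0.55. The part of these differences in the results for the Klf genes was not tested. None of the 10 genes overlaps another annotated gene, and none has a copy elsewhere among annotated transcripts at 95% identity over 200 bp.

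**Figure D4:**
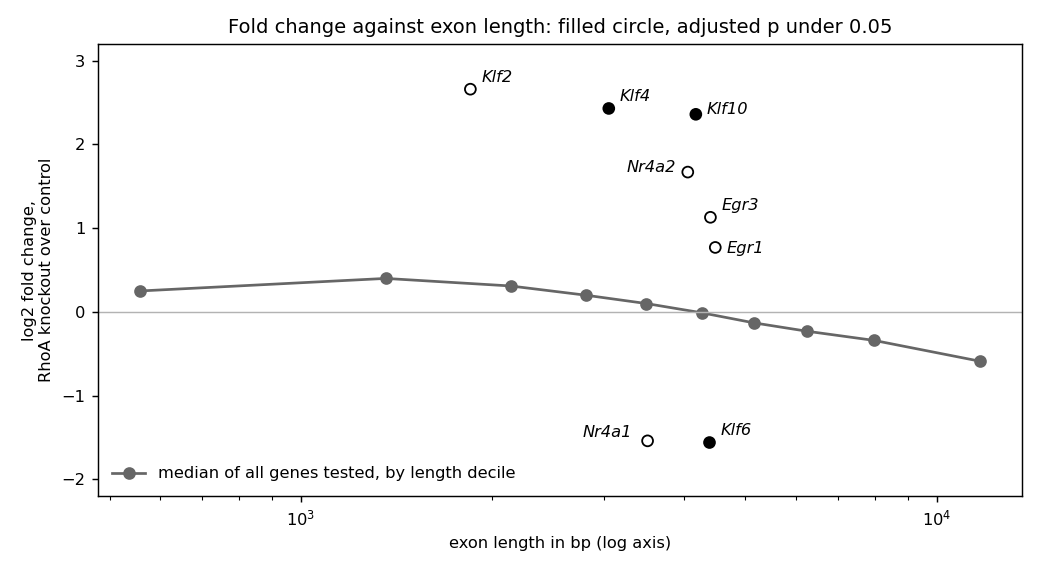
Log2 fold change of the RhoA knockout over the control libraries against exon length in bp, for the 8 genes tested (circles, filled for an adjusted p under 0.05) and as the median of 10 length classes of all genes tested (grey line). Klf4, Klf6 and Klf10 lie far from the line, which stays between -0.59 and 0.40.

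By their profile over the 6 libraries, the genes most like the 3 called ones were Ptpn22, Fen1 and Lhpp. The measure was the root mean square difference of log2 CPM centred on each gene's own mean, among 3706 genes with an average log2 CPM of at least 3. It takes in the difference between the groups, so a similar log2 fold change follows from the choice and is no separate finding. Ptpn22, a leukocyte tyrosine phosphatase, differed from Klf6 by 0.06 and had a log2 fold change of -1.56, with 10.02 CPM in the RhoA knockout libraries and 29.5 CPM in the control libraries on average. Fen1, a flap endonuclease of DNA replication, differed from Klf10 by 0.11 and had a log2 fold change of 2.49. Lhpp, a phosphatase, differed from Klf4 by 0.26 and had a log2 fold change of 2.27. Within 0.25 there were 159 genes for Klf6, 42 for Klf10 and none for Klf4, so these are the nearest of many similar profiles for the first 2. The low genes had more distant neighbours, which were Serp1 for Egr1 at 0.31, Eif2s3y for Egr3 at 0.43, Ptpn7 for Klf2 at 0.74 (itself not called), Furin for Nr4a1 at 0.99 and Bhlhe41 for Nr4a2 at 1.31. Counting error at such low levels by itself makes a distance larger, so these distances say little about the profiles of the low genes.

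Other immediate early genes, the wider class to which Egr and Nr4a genes belong, were looked at beside them. Of 32 listed genes 29 were tested, of which 15 were called lower and 2 higher, beside 22.3% lower and 21.0% higher over all genes tested, with a median log2 fold change of -1.63 beside -0.03 for all genes tested. Nfkbiz, an atypical inhibitor of NF-kB, fell to 1.88 ± 0.201 CPM in the RhoA knockout libraries, against 33.5 ± 1.52 CPM in the control libraries (SD, n = 3 each; log2 fold change -4.16 ± 0.15, SE; edgeR adjusted p = 2.89e-09). Zfp36, which destabilizes AU-rich mRNAs, and the stress kinase Plk3 had log2 fold changes of -2.59 and -5.26. Fos and Bhlhe40 were the 2 called higher. Fos averaged 17.9 ± 3.50 CPM in the RhoA knockout libraries and 4.23 ± 0.947 CPM in the control libraries (SD, n = 3 each; log2 fold change 2.08 ± 0.20, SE; edgeR adjusted p = 6.21e-06). Egr1 was not among the called genes, with a log2 fold change of 0.77, and the difference between it and Fos was not tested.

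Of 31 genes of signalling towards these promoters, all were tested, and 15 were called lower and 2 higher, beside the same 22.3% and 21.0% of all genes, with a median log2 fold change of -0.55. The lower ones included the kinase genes Map2k1 and Map2k2. Map2k1, which encodes MEK1, had 3.62 ± 0.483 CPM in the RhoA knockout libraries and 13.2 ± 0.533 CPM in the control libraries (SD, n = 3 each; log2 fold change -1.86 ± 0.17, SE; edgeR adjusted p = 3.59e-06). Map3k3, a kinase upstream of ERK5 and thereby of Klf2 and Klf4, had a log2 fold change of -1.41. The 2 called higher were Csf1r, the M-CSF receptor, and Mef2c. Csf1r averaged 577.2 ± 34.2 CPM in the RhoA knockout libraries and 257.0 ± 25.7 CPM in the control libraries (log2 fold change 1.17). Mef2c had a log2 fold change of 0.32, with an edgeR adjusted p of 0.047 close to the threshold. In 7 of the 17 alternatives Csf1r was the only gene of this list called higher. With the gene length correction 12 were called lower. Srf itself held 16, 22 and 28 counts in the RhoA knockout libraries and 14, 8 and 0 in the control libraries, and was not called (edgeR adjusted p = 0.42).

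Of 10 partners and corepressors 9 were tested, of which 2 were called higher and 2 lower, shares close to the 21.0% higher and 22.3% lower of all genes, with a median log2 fold change of -0.33. Nab1, a corepressor of Egr proteins, had 5.45 ± 0.805 CPM in the RhoA knockout libraries and 9.18 ± 0.581 CPM in the control libraries (SD, n = 3 each; log2 fold change -0.75 ± 0.18, SE; edgeR adjusted p = 0.00445), and the call was lost with library totals alone (adjusted p = 0.0729). Rxra, a nuclear receptor that pairs with Nr4a1 and Nr4a2, averaged 1.17 ± 0.465 CPM in the RhoA knockout libraries and 0.320 ± 0.102 CPM in the control libraries (SD, n = 3 each). Its log2 fold change was 1.86, with an edgeR adjusted p of 0.0164 that was 0.0915 without RhoA knockout replicate 1 and 0.0642 without replicate 2. The deacetylases Hdac1 and Hdac2 were at 0.58 and -1.02. Of 15 genes reported as targets of Egr or Klf factors 11 were tested, of which 5 were called lower and 1 higher, beside 22.3% lower and 21.0% higher of all genes, with a median log2 fold change of -0.60. Id3, an inhibitor of helix-loop-helix factors, and the cell cycle inhibitor Cdkn1a had log2 fold changes of -2.29 and -1.49, the integrin chain Itgb7 one of -2.14, and Cd83, a maturation marker of antigen-presenting cells, one of 1.62. Many other factors act on these genes, and no binding was measured here.

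**Figure D5:**
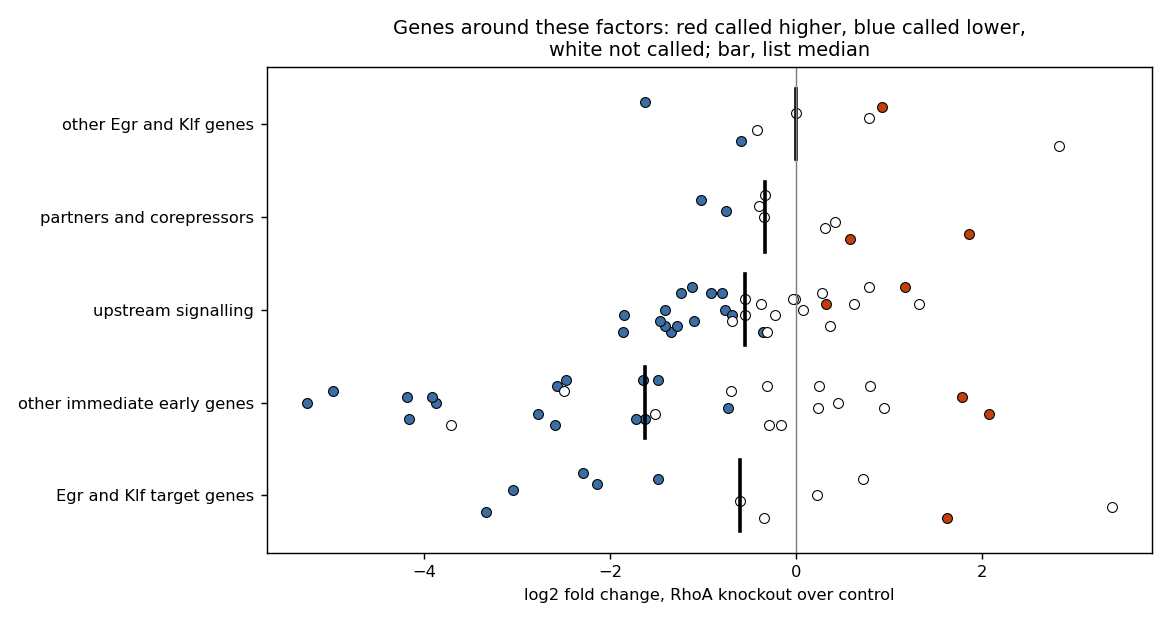
Log2 fold changes of the RhoA knockout over the control libraries for the tested genes of 5 lists around these factors, each dot a gene, red if called higher, blue if called lower and white if not called, with the list median as a bar. The immediate early genes have the lowest median, -1.63, with Fos and Bhlhe40 as red dots on the right.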

How the data were processed

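The authors deposited 1 table of raw read counts, whole numbers with 1 column for each of the 6 samples and no normalization. Per the labels' protocols, Trizol was used for RNA and an Illumina kit for the libraries. The genome build was GRCm38, per the submitters' processing notes. For the aligner, the counter and strandedness the answer is: not given in the sources used here. From 27.0 to 28.6% of the counts between 1 and 40 were multiples of 4, against 25% if spread evenly. Symbols, coordinates and exon lengths are those of GENCODE M21 on GRCm38, matched by identifier without its version (55227 of 55487 matched).

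Groups were compared in R 4.3.3 by the quasi-likelihood test of edgeR 4.0.16 (TMM, filterByExpr, robust glmQLFit), and p-values were adjusted by Benjamini-Hochberg over 12930 genes. An SE is |log2 fold change| over the root of F. The procedure was tested on simulated data. Alternatives included DESeq2 1.42.0, other scaling and filters, a replicate block, a gene length correction (lowess, span 0.3), and leaving out libraries. Copies were sought with blastn 2.17.0. Same-numbered samples of the groups did not deviate together, with correlations of -0.01, 0.03 and 0.01, so the replicate number was not used for pairing. The 10 genes and all lists were chosen with earlier results of these data known. Named genes outside the 10 are, from each list, up to 4 called genes with the smallest p, family members whose mean log2 CPM reached 1, and the nearest profiles. Others named were chosen after their values were seen. The values of 1 gene that this rule names are not reported here.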

Additional observations from a re-analysis of the deposited data

How the results depend on the processing

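Klf6 stayed called lower, and Klf4 and Klf10 higher, under each of the 17 alternatives run. Their log2 fold changes ran from -1.66 to -1.38, from 2.06 to 2.93 and from 2.24 to 2.54. The number of the 10 genes called higher was 2 to 3 and the number called lower 1 to 2 when leaving out 1 library at a time. Without replicate 3 of both groups together 3 were called higher and 2 lower, the added ones being Nr4a2 and Nr4a1. Those calls rest on 1 group without counts. Leaving out 1 library gave 4845 to 5313 calls among all genes. Scaling by library totals put the median of all log2 fold changes at 0.15 instead of -0.03, and the higher share of all calls at 59.8% instead of 48.5% under TMM. With the replicate block, which the labels do not tie to a shared culture, 5372 genes were called, with 2 of the 10 higher and 1 lower. Klf9 had the opposite sign from its value of 0.00 in 9 alternatives without being called, at 0.02 with DESeq2 size factors or the DESeq2 test, 0.14 with library totals, 0.10 with the length correction and 0.07 with that and the block, and from -0.31 to 0.15 when leaving out 1 library, with 0.08, 0.15, 0.07 and 0.11 above 0. Counts divided by 4, an alternative chosen after seeing the data, and the stricter filter left Egr3, Nr4a1, Nr4a2 and Klf2 untested. Depth limits these genes: at 3 counts a library the limit is 0.034 to 0.039 CPM in the RhoA knockout and 0.039 to 0.051 CPM in the control libraries. This holds if 1 read adds 1 count, and the limit is higher otherwise.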

Other observations

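Klf5, a Klf gene of gut and skin epithelium, held 10 counts in control replicate 1 and 0 in the other 5 libraries. The epithelial markers Epcam, Krt8 and Krt18 held 39, 24 and 48 counts in the same library and 0 in the others, while Krt19 and Cdh1 were at 0 throughout. Without control replicate 1 the log2 fold changes were -1.66 for Klf6, 2.48 for Klf10 and 2.15 for Klf4, all still called by edgeR (adjusted p of 3.03e-05, 7.93e-05 and 0.00567). Klf11, another TGF-beta-inducible Klf gene, held 70, 115 and 67 counts in the RhoA knockout libraries and 31, 0 and 0 in the control libraries, with an edgeR adjusted p of 0.0759. S1pr1, a known Klf2 target in lymphocytes and named here after its values were seen, held 79, 43 and 26 counts in the RhoA knockout libraries and 12, 0 and 0 in the control libraries. It had a log2 fold change of 3.40 and an edgeR adjusted p of 0.0508.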
